A study of Homo sapiens with 8 samples.

Results

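The genes described here encode 9 secreted factors and receptors of blood vessel growth, several of them known hypoxia-response genes. They were taken by symbol from the table of normalized counts, and all 9 of the 9 named genes had a row among 18216 gene rows. The factors are VEGFA, VEGFC, ANGPT1, ANGPTL4, ADM and THBS1, and the receptors are FLT1, TEK and NRP1. PolyA RNA came from IMR90, a line of human lung fibroblasts, at passage 28. The cells were grown in medium with 10% serum under 3% oxygen and 5% carbon dioxide. The 4 groups of 2 libraries were cells given the solvent DMSO and cells given Nutlin-3a at 3 µg/mL for 6, 9 or 12 h. Nutlin-3a keeps the ubiquitin ligase MDM2 from binding p53. A single DMSO group, whose time in culture is not given in the sources used here, served all 3 times, so exposure time and time in culture cannot be told apart. All groups share the low oxygen and the 1 cell line.

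VEGFA and VEGFC are growth factors for blood and lymphatic endothelium, and FLT1 is a receptor that binds VEGFA tightly and can act as a decoy. NRP1 is a coreceptor for VEGFA and also for class 3 semaphorins. ANGPT1, made by mesenchymal cells, activates the receptor TEK (also called TIE2) and stabilises vessels. ADM encodes the vasodilator peptide adrenomedullin, THBS1 a matrix glycoprotein that restrains angiogenesis, and ANGPTL4 a secreted inhibitor of lipoprotein lipase. VEGFA, ADM and ANGPTL4 are textbook targets of the hypoxia-inducible factors (HIFs), and ANGPTL4 is also a target of the PPAR nuclear receptors.

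Upstream sequence is shown for 4 members whose counts moved differently, 3 that were highest at 6 h and 1 that was below DMSO at each time. A RefSeq table (GRCh38.p14) matched 6 of the 9 symbols. Each run holds the 250 bases before the listed start, and the bases after it were left out. Capitals mark the HIF core motifs ACGTG and GCGTG, read on both strands, and the TATA box motif TATAAA.
ANGPTL4, chr19:8363905-8364154, plus strand: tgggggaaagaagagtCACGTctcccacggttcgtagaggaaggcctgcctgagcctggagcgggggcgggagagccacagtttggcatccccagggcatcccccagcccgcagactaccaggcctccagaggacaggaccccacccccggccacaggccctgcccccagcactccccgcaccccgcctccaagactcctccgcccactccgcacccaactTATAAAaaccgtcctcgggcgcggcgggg
FLT1, chr13:28495129-28495378, minus strand: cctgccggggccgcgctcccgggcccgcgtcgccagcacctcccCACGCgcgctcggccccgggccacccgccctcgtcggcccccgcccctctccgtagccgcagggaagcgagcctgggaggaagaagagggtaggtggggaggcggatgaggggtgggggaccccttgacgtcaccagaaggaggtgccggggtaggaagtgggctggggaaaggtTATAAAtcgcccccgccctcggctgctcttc
THBS1, chr15:39580829-39581078, plus strand: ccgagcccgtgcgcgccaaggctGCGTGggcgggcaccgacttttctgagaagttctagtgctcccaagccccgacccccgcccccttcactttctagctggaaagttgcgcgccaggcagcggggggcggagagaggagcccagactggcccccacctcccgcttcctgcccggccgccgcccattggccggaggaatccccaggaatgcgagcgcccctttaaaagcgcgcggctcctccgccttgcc
ADM, chr11:10304823-10305072, plus strand: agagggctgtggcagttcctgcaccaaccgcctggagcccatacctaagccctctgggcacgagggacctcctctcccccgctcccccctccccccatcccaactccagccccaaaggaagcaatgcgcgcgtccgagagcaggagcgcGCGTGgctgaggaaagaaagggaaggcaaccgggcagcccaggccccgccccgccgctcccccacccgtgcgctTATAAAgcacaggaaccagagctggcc

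ANGPTL4 held ACGTG, from position −234 counted from the start, and FLT1 (−206), THBS1 (−227) and ADM (−101) each held GCGTG. Among the matched members not shown, VEGFC held GCGTG (−59), and TEK had 0 matches to any of the motifs at either of its listed starts. Over 27305 promoters of the same length, 18.7% held ACGTG, of which some are the E-box CACGTG (6.49%), and 31.9% held GCGTG. The TATA box motif began at −29 in ANGPTL4, −31 in FLT1 and −27 in ADM, and 11.1% of promoters held it. The p53 half-site motif, found in 5.53% of promoters, had 0 matches in the 4 windows shown and 1 match in that of VEGFC, at −229. The PPAR direct repeat, found in 0.0183% of promoters, had 0 matches in the 4 windows. The 4 windows were shown for their differing courses, so motifs that they share cannot be weighed against those courses. Whether any of these motifs bears on the counts was not tested.

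Gene reads amounted to 21.9 to 33.6 M (1e6) per library, and 3 reads, taken as the floor, corresponded to a normalized count of 2.46 to 3.75. Each member had a mean far above that floor. The p53 targets MDM2 and CDKN1A, which check the treatment, rose by log2 3.03 ± 0.06 and 3.47 ± 0.04 at 6 h and stood at 3.13 ± 0.06 and 3.90 ± 0.04 at 12 h. Over 11461 genes the log2 differences between replicates had an SD of 0.174 in DMSO and 0.118 to 0.129 under Nutlin-3a. The labels do not say whether replicates are separate cultures, and the p-values cover the spread among these libraries, possibly a technical one. Counts are given as mean ± SD (n = 2) and log2 changes as estimate ± SE. Adjusted p-values are from limma over 14074 tested genes, and "rose" or "fell" means an adjusted p below 0.05.

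Levels between genes can be set side by side only per length. Per kilobase of the principal GENCODE transcript, normalized counts in DMSO ran from 152 ± 7.53 for FLT1 over 172 ± 9.96 for ANGPT1, 208 ± 24.3 for ANGPTL4 and 415 ± 13.7 for TEK to 1319 ± 6.41 for NRP1. Above these lay ADM at 1952 ± 108, VEGFC at 2105 ± 67.97, VEGFA at 2412 ± 150 and THBS1 at 18712 ± 873. Neighbours such as ADM and VEGFC differed by little more than their spread, and the place of VEGFA hangs on the transcript chosen (200.4 per kilobase of all its merged exons). At 6 h ANGPTL4 stood at 1187 ± 13.9, above TEK at 394 ± 15.5 and above NRP1, which had itself fallen to 1024 ± 24.6. The samples are fibroblasts by their label, IMR90. All 10 fibroblast markers passed the filter, among them COL1A1 and COL1A2 (means over all libraries of 513329 and 273414 normalized counts). Passing the filter does not tell cell types apart, since 8 of 8 pericyte and smooth muscle markers passed it too.

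FLT1 and TEK are best known from endothelium, so endothelial markers were read beside them. Of 12 such markers, 10 were measured and 6 passed the filter on low values. Summed normalized counts of the 10 measured ranged from 206 to 265 in DMSO, 288 to 313 at 6 h, 260.4 to 279 at 9 h and 224 to 240.4 at 12 h. Of the 6 tested, 1 rose and 0 fell at each time. ROBO4 went from 35.5 and 39.1 in DMSO to 90.1 and 99.9 at 6 h (log2 1.33). Means of VWF and ESAM were also higher at 6 h (26.7 to 34.3 and 15.3 to 21.8). Those of EGFL7, TIE1 and KDR were lower (75.97 to 74.7, 52.9 to 46.6 and 18.1 to 15.8). Over all libraries, EGFL7 and ROBO4 had means of 71.3 and 63.3 normalized counts. CDH5 (VE-cadherin, 0 to 6.55) and CLDN5 (1.99 to 5.00), chosen after their values were seen, lay near the floor in every library. The VEGF receptors KDR and FLT4 had DMSO means of 18.1 ± 8.92 and 12.1 ± 4.98, and TIE1 had 52.9 ± 9.49. On the same count scale FLT1 stood at 1076 ± 53.4 and TEK at 1973 ± 65.1. Per kilobase, KDR was at 2.99 against 152 for FLT1, and TIE1 at 13.6 against 415 for TEK. Of the pericyte and smooth muscle markers, which include CSPG4 and ACTA2, 8 of 8 passed the filter, with sums of 27984 to 30130 in DMSO and 31450 to 33606 under Nutlin-3a. Immune markers (2 of 7 passing, CD68 and CSF1R) summed to 755 to 1016 over the libraries and epithelial ones (2 of 7, CLDN4 and EPCAM) to 273 to 394. In bulk RNA, fewer cells of a type and less RNA per cell cannot be told apart. The part of other cell types in the results below was not tested.

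**Figure D1:**
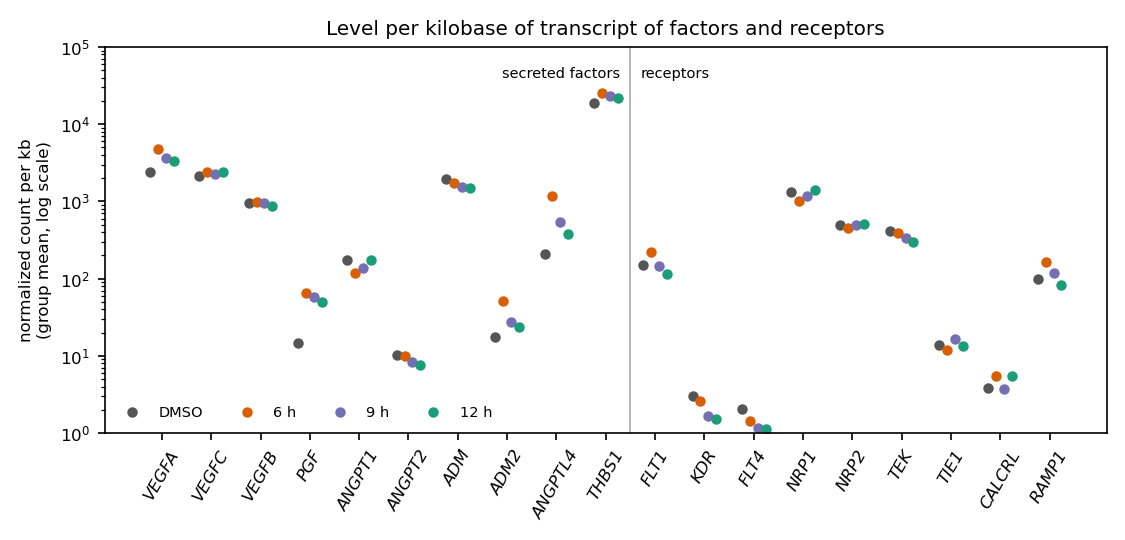
Group means of normalized counts per kilobase of principal transcript, on a log axis, for secreted factors (left) and receptors (right); each point is the mean of 2 libraries of DMSO or of 6, 9 or 12 h of Nutlin-3a. FLT1, TEK and NRP1 lie between 152 and 1319 in DMSO, while KDR, FLT4 and CALCRL lie below 6 in each group.

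All 9 members differed among the 4 groups by limma's F test (adjusted p from 8.44e-15 for ANGPTL4 to 0.00377 for VEGFC), where 49.9% of all tested genes did. At 6 h 5 members rose (VEGFA, VEGFC, ANGPTL4, THBS1 and FLT1), 3 fell (ANGPT1, ADM and NRP1) and 1, TEK, did not pass. Of all tested genes 16.1% rose and 20.6% fell, 36.7% together, and among the 7513 genes with a mean of at least 500 this share was 45.9%. The members, all of them above that mean, are therefore to be read against the higher share. They and the gene lists below were chosen with earlier results of these data known. An excess over these shares is therefore not a test. At 9 h 3 rose and 4 fell (35.3% of all genes called, 16.2% higher and 19.1% lower), and at 12 h 4 rose and 3 fell (39.9%, 18.5% higher and 21.4% lower). Among abundant genes the shares called were 45% and 50.3% at these times. The members' median log2 change was 0.19, −0.04 and 0.09 at 6, 9 and 12 h, beside −0.01, 0.01 and 0.01 over all genes, since their directions were mixed. The 3 comparisons share the DMSO libraries. The members took 4 courses, which the following paragraphs give by role.

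**Figure D2:**
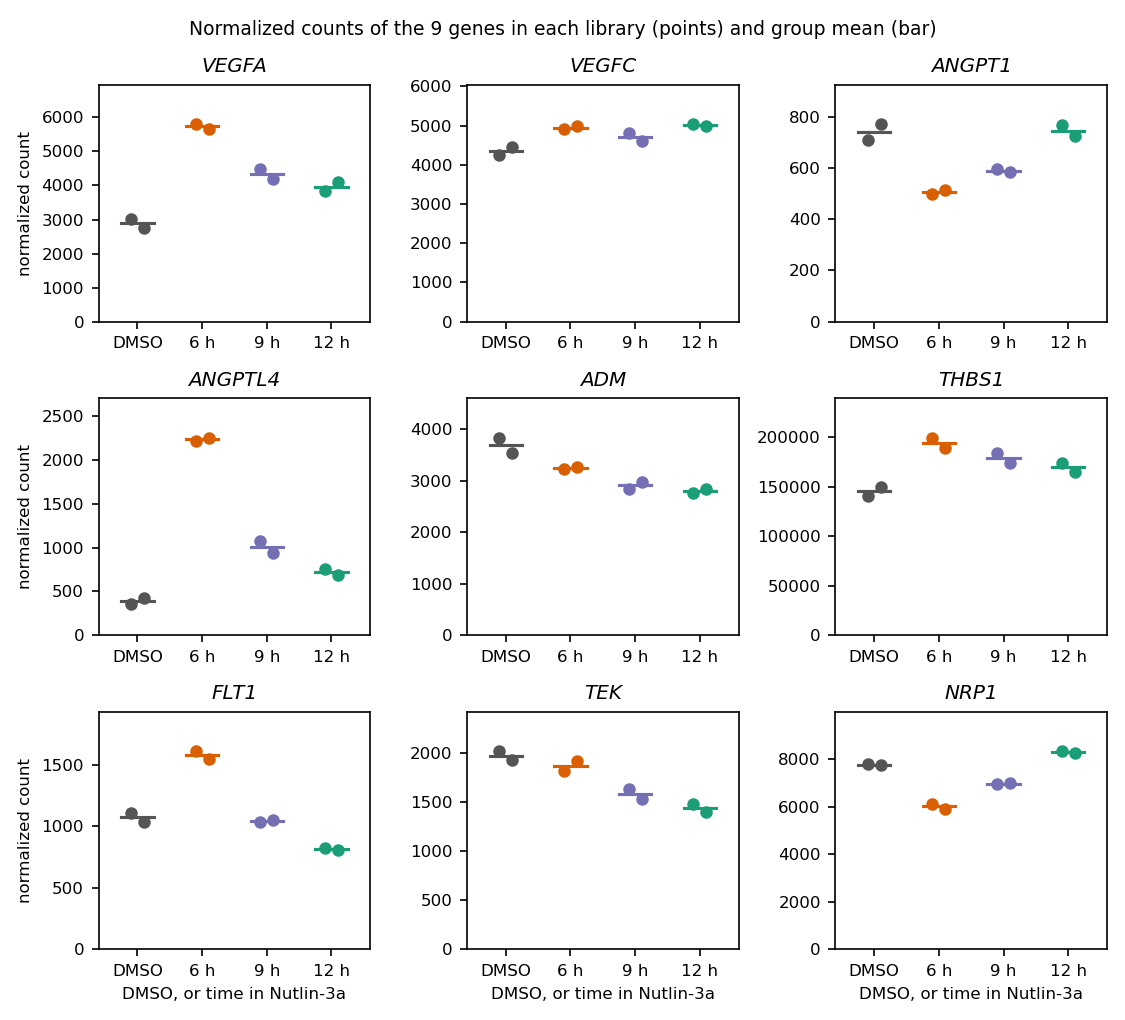
Normalized counts of the 9 genes in each of 8 libraries (points) with the group mean (bar), each axis starting at 0. ANGPTL4, VEGFA, THBS1 and FLT1 are highest at 6 h, ANGPT1 and NRP1 are lowest there, and ADM and TEK are lower at each later time.

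Among the secreted factors, ANGPTL4 changed most. Its normalized counts were 359 and 423 in the DMSO libraries, 2213 and 2249 at 6 h, 1071 and 938 at 9 h, and 755 and 686 at 12 h. The 4 groups did not overlap, and each Nutlin-3a library lay above both DMSO libraries. ANGPTL4 rose by log2 2.51 ± 0.08 at 6 h (5.71-fold, adjusted p = 4.69e-15), the 24th largest increase among 14074 genes. It was still higher at 9 h (1.36 ± 0.08) and at 12 h (0.88 ± 0.08, 1.84-fold, adjusted p = 2.05e-08). From 6 to 12 h it fell by 1.63 ± 0.08 (adjusted p = 4.14e-12), the 37th largest decrease, with falls of 1.15 ± 0.08 from 6 to 9 h and 0.48 ± 0.08 from 9 to 12 h. The last step was not called without 9 h replicate 1 (−0.38, adjusted p = 0.0550) or 12 h replicate 2 (−0.41, 0.0520), nor without an intensity trend (0.149).

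VEGFA, the main endothelial growth factor, stood at 3019 and 2764 in DMSO and at 5805 and 5667 at 6 h. It was 4471 and 4194 at 9 h, and 3847 and 4088 at 12 h, above DMSO in every Nutlin-3a library. It rose by log2 0.99 ± 0.05 at 6 h (1.99-fold, adjusted p = 1.42e-11), and was 49.9% and 37.3% above DMSO at 9 and 12 h (0.58 ± 0.05 and 0.46 ± 0.05). VEGFA fell by 0.53 ± 0.05 from 6 to 12 h (adjusted p = 1.67e-07), of which 0.41 ± 0.05 lay between 6 and 9 h (adjusted p = 1.53e-05). The step from 9 to 12 h (−0.13 ± 0.05, adjusted p = 0.259) was called only without DMSO replicate 1 (0.0332) or 2 (0.0327) or with only the 2 groups compared (0.0273). Over 21 alternatives the change at 6 h lay between 0.93 and 1.05.

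THBS1, the most abundant member, had 140687 and 150290 normalized counts in DMSO, 199700 and 189761 at 6 h, 183877 and 174024 at 9 h, and 174467 and 165250 at 12 h. Every Nutlin-3a library lay above both DMSO libraries, while the 9 h and 12 h groups overlapped. It rose by log2 0.42 ± 0.05, 0.30 ± 0.05 and 0.22 ± 0.05 at 6, 9 and 12 h (adjusted p = 2.14e-06, 0.000125 and 0.00176) and fell by 0.20 ± 0.05 from 6 to 12 h (0.00630). These calls were lost with quantile normalization (0.17, 0.12, 0.07 and −0.0999, adjusted p = 0.0696, 0.207, 0.473 and 0.295). The 12 h call was also lost without 12 h replicate 1 (0.18, 0.0546). The fall from 6 to 12 h was lost without 6 h replicate 1 (−0.16, 0.0848) or 12 h replicate 2 (−0.16, 0.123) and without an intensity trend (0.0779). The step from 6 to 9 h (−0.12, adjusted p = 0.116) was called without DMSO replicate 1 (0.0127) or 2 (0.0128), with only the 2 groups (0.0239) and with group weights (0.0400). In GENCODE v29 (GRCh38), 448 of 9158 exon bases of THBS1 lie opposite exons of FSIP1, which had 16.4 to 33.9 normalized counts, and whether counting used the strand is not given in the sources used here.

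VEGFC, the lymphatic growth factor, moved little. It stood at 4245 and 4443 in DMSO, 4912 and 4982 at 6 h, 4815 and 4611 at 9 h, and 5039 and 4978 at 12 h. All Nutlin-3a libraries were above both DMSO libraries, and the 6 h and 12 h groups overlapped. VEGFC rose by log2 0.19 ± 0.05 at 6 h (adjusted p = 0.00347) and 0.21 ± 0.05 at 12 h (0.00143). At 9 h the change was 0.12 ± 0.05 (adjusted p = 0.0580), which was called with TMM scaling (0.0300), quantile normalization (0.0286), edgeR (0.0324) or without DMSO replicate 2 (0.15, 0.00803). From 6 to 12 h its difference was 0.02, with a 95% interval of −0.08 to 0.12.

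ADM, the adrenomedullin gene, took the other direction from VEGFA and ANGPTL4. Its normalized counts were 3831 and 3543 in DMSO, 3232 and 3265 at 6 h, 2847 and 2969 at 9 h, and 2762 and 2828 at 12 h. Every Nutlin-3a library lay below both DMSO libraries. ADM fell by log2 0.18 ± 0.05 at 6 h (adjusted p = 0.00857), 0.34 ± 0.05 at 9 h (2.19e-05) and 0.40 ± 0.05 at 12 h (2.52e-06, to 0.759 of the DMSO level). It fell by 0.22 ± 0.05 from 6 to 12 h (0.00268). The 6 h call was lost without 6 h replicate 1 (−0.17, adjusted p = 0.0642) and without an intensity trend (0.0646). The fall from 6 to 9 h (−0.16, adjusted p = 0.0344) was lost without any one of the 6 Nutlin-3a libraries (−0.19 to −0.13, adjusted p = 0.0607 to 0.276), with quantile normalization (0.0898), without an intensity trend (0.143) and with DESeq2 (0.0536).

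ANGPT1, the ligand of TEK, dipped and came back. It had 712 and 772 normalized counts in DMSO, 500.3 and 514 at 6 h, 595 and 585 at 9 h, and 767 and 724 at 12 h. The 6 h and 9 h groups lay below both DMSO libraries, and the 12 h group overlapped with DMSO. ANGPT1 fell by log2 0.55 ± 0.07 at 6 h (adjusted p = 4.36e-06) and 0.33 ± 0.07 at 9 h (0.00115). At 12 h the difference from DMSO was 0.01, with a 95% interval of −0.14 to 0.16. It rose by 0.55 ± 0.07 from 6 to 12 h (adjusted p = 4.75e-06), a call kept in all 20 alternatives. The single steps were less firm, since that from 6 to 9 h (0.22, adjusted p = 0.0391) was lost without any one of the 6 Nutlin-3a libraries (0.20 to 0.24, 0.0592 to 0.202), without an intensity trend (0.0833) and with DESeq2 (0.151). That from 9 to 12 h (0.34, 0.00690) was lost without 9 h replicate 1 (0.35, 0.0680) or 2 (0.32, 0.0982), 12 h replicate 1 (0.30, 0.144) and an intensity trend (0.0823).

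Among the receptors, FLT1 changed direction. Its normalized counts were 1113 and 1038 in DMSO, 1611 and 1546 at 6 h, 1034 and 1054 at 9 h, and 823 and 809.6 at 12 h. The 6 h libraries lay above both DMSO libraries, the 9 h group overlapped with DMSO, and the 12 h libraries lay below all others. FLT1 rose by log2 0.55 ± 0.06 at 6 h (1.47-fold, adjusted p = 4.35e-07) and at 12 h was lower than DMSO, having fallen by 0.40 ± 0.06 (2.36e-05). At 9 h it differed from DMSO by −0.04, with a 95% interval of −0.17 to 0.09. From 6 to 12 h FLT1 fell by 0.95 ± 0.06 (adjusted p = 1.91e-10), to 0.517 of its 6 h level. A rise at 6 h together with a fall at 12 h against DMSO was called for 100 genes, 0.711% of those tested, and FLT1 was the 1 member among them. The step from 9 to 12 h (−0.35 ± 0.06, adjusted p = 0.000852) was lost without an intensity trend (0.0559), and the other called changes of FLT1 kept their calls in every alternative. Counts per gene do not separate the soluble from the membrane-bound form of FLT1.

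TEK, the receptor of ANGPT1, declined. It stood at 2019 and 1927 in DMSO, 1821 and 1926 at 6 h, 1632 and 1529 at 9 h, and 1479 and 1396 at 12 h. The 9 h and 12 h libraries lay below all DMSO and 6 h libraries, while the upper 6 h library nearly met the lower DMSO library. At 6 h the log2 difference was −0.08, with a 95% interval of −0.20 to 0.05 (adjusted p = 0.346). TEK fell by 0.32 ± 0.06 at 9 h (0.000196) and by 0.46 ± 0.06 at 12 h (2.20e-06, to 0.729 of DMSO). It fell by 0.38 ± 0.06 from 6 to 12 h (3.66e-05). The step from 6 to 9 h (−0.25, 0.00513) was lost without 6 h replicate 2 (−0.20, 0.0871), 9 h replicate 2 (−0.20, 0.115) or an intensity trend (0.0701).

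NRP1, the coreceptor of VEGF and semaphorins, was also lowest at 6 h, as ANGPT1 was. It had 7786 and 7733 normalized counts in DMSO, 6123 and 5918 at 6 h, 6968 and 6974 at 9 h, and 8323 and 8248 at 12 h. The groups did not overlap, and the 12 h libraries were the highest. NRP1 fell by log2 0.37 ± 0.04 at 6 h (adjusted p = 1.20e-06) and 0.15 ± 0.04 at 9 h (0.00851), and at 12 h differed from DMSO by 0.09 ± 0.04 (0.0912). The 9 h call was lost without 9 h replicate 1 (−0.15, 0.0696) or 2 (−0.16, 0.0676). At 12 h NRP1 was called higher with TMM scaling (0.12, 0.0377), quantile normalization (0.14, 0.0117) and edgeR (0.12, 0.0412). From 6 to 12 h it rose by 0.46 ± 0.04 (adjusted p = 6.02e-08), with rises of 0.21 ± 0.04 from 6 to 9 h (0.00155) and 0.25 ± 0.04 from 9 to 12 h (0.000983, 0.0739 without an intensity trend).

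**Figure D3:**
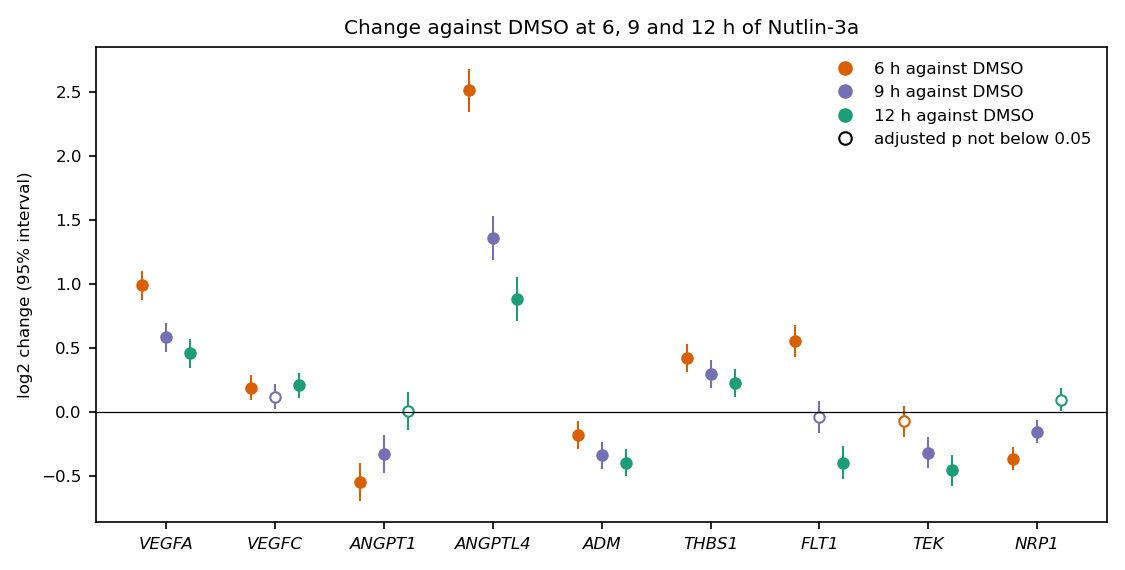
Log2 change of each gene against DMSO at 6, 9 and 12 h of Nutlin-3a, with 95% intervals from limma; open points did not pass the adjusted p of 0.05. ANGPTL4 is at 2.51, 1.36 and 0.88, FLT1 goes from 0.55 to −0.40, and ANGPT1 and NRP1 go from −0.55 and −0.37 to near 0.

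The times of exposure were also compared with one another, without the DMSO libraries in the difference. From 6 to 12 h 2 members rose (ANGPT1 and NRP1) and 6 fell (VEGFA, ANGPTL4, ADM, THBS1, FLT1 and TEK), while 31.5% of all genes were called (14.4% higher, 17.1% lower) and 40.3% of the abundant ones. From 6 to 9 h 2 rose and 5 fell, where 18.4% of all genes were called, 8.52% higher and 9.9% lower, and 24.7% of the abundant ones. From 9 to 12 h 2 rose (ANGPT1, NRP1) and 2 fell (ANGPTL4, FLT1), where 4% of all genes were called, 1.08% higher and 2.92% lower, and 5.9% of the abundant ones. A rise at 6 h followed by a fall to 12 h was called for VEGFA, ANGPTL4, THBS1 and FLT1, a pattern called for 5.67% of genes. The mirror pattern was called for ANGPT1 and NRP1 and for 5.29% of genes. ADM was the 1 member that fell against DMSO at all 3 times, as 12.6% of genes did, and VEGFA, ANGPTL4 and THBS1 rose at all 3 times, as 7.87% did.

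Across the 8 libraries, which share 4 groups, the log2 values of ANGPTL4 ran with those of VEGFA (Pearson r = 0.97) and THBS1 (0.95), those of ANGPT1 with NRP1 (0.96), and those of ADM with TEK (0.91). These r values describe the libraries only. Among 2138 or 2139 candidate genes, those most like ANGPTL4 were SEMA7A, IL6 and AMIGO2 (r = 0.99 each), with IL6, a cytokine gene, at log2 1.42, 0.77 and 0.45 against DMSO. VEGFA was most like ULBP1, ROBO4 and RHOB (0.99 each), of which ULBP1 encodes a ligand of an activating receptor on lymphocytes and ROBO4 a guidance receptor that is also among the endothelial markers. FLT1 was most like E2F7, APOL6 and LMCD1 (0.98, 0.98 and 0.97), and E2F7, a repressor of the cell cycle, stood at 0.57, 0.00 and −0.29. ANGPT1 was most like SEMA3A, TRPA1 and CCDC85A (0.99, 0.98 and 0.98) and NRP1 like ABCC9, TRPA1 and MAP2K6 (0.99 each). Those most like THBS1 were CPEB4, RIC1 and SEC14L2 (0.98 each), and most like VEGFC were IL11, XDH and HAS2 (0.97, 0.97 and 0.96). ADM was most like MAZ, CARHSP1 and IDH2 (0.99 each) and TEK like DIAPH1, EMP2 and CDC25C (0.99 each).

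Relatives of the members followed mixed courses. Their counts are to be read against the 16.1%, 16.2% and 18.5% of all tested genes that rose and the 20.6%, 19.1% and 21.4% that fell at 6, 9 and 12 h. These lists too were chosen with earlier results known, so an excess over those shares is no test. In the VEGF family, PGF, a ligand of FLT1, had normalized counts of 20.5 and 36.5 in DMSO and 88.4 to 135 in the Nutlin-3a libraries, above both DMSO libraries in all 6. It rose by log2 2.14 ± 0.21, 1.96 ± 0.21 and 1.76 ± 0.21 at 6, 9 and 12 h (adjusted p = 6.88e-08, 1.89e-07 and 6.95e-07). Of 5 tested genes of this family 1 rose at each time and 1, 0 and 1 fell, with a median of −0.10, 0.02 and −0.15. The genes that fell were NRP2 at 6 h (−0.13) and VEGFB at 12 h (−0.15), and both calls were lost with TMM scaling (adjusted p = 0.0718 and 0.0919), edgeR (0.0760 and 0.0837) and DESeq2 (0.0844 and 0.126). They were also lost without DMSO replicate 1 (−0.08, 0.221 and −0.11, 0.183), among other libraries. KDR, the main VEGFA signalling receptor, had log2 differences of −0.10, −0.75 and −0.92, which were not called. Without DMSO replicate 2 they were called at 9 and 12 h (−1.24 and −1.42, adjusted p = 0.0452 and 0.0187).

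On the angiopoietin side, 1 of 3 tested relatives rose at each time and 0 fell. It was PTPRB, a phosphatase that acts on TEK, which went from 231 and 238 normalized counts in DMSO to 365 and 383 at 6 h. PTPRB rose by log2 0.67 ± 0.09, 0.50 ± 0.09 and 0.35 ± 0.09 (adjusted p = 8.54e-06, 0.000266 and 0.00502), and its 12 h call was lost without 12 h replicate 2 (0.27, 0.0896). ANGPT2 (−0.07, −0.32 and −0.44) and TIE1 (−0.17, 0.28 and −0.02) were not called, except ANGPT2 at 12 h without an intensity trend (0.0263). ANGPTL2, the 1 tested relative of ANGPTL4 among 7, rose by 0.34, 0.39 and 0.24. At 12 h the call did not hold without DMSO replicate 2 (0.12, 0.117), 12 h replicate 1 (0.22, 0.0821) or an intensity trend (0.0743).

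For adrenomedullin, 3, 1 and 1 of 4 tested relatives rose and 0 fell, with medians of 0.63, 0.18 and 0.18. ADM2, a peptide gene of the same family, went the other way from ADM. It had 72.3 and 77.3 normalized counts in DMSO, 218 and 226 at 6 h, 114 and 121 at 9 h, and 98.9 and 102 at 12 h. ADM2 rose by 1.56 ± 0.13, 0.64 ± 0.13 and 0.42 ± 0.13 (adjusted p = 7.83e-09, 0.000603 and 0.0134). The 12 h call was lost without DMSO replicate 1 (0.37, 0.0606) or 12 h replicate 1 (0.40, 0.0774) and with DESeq2 (0.120). RAMP1, a receptor subunit, rose by 0.73 ± 0.16 at 6 h (0.000963), and stood at 0.27 and −0.23 later. Without DMSO replicate 2 it was called at 9 h (0.48, 0.0282), and without DMSO replicate 1 lower at 12 h (−0.45, 0.0382). CALCRL, the receptor that adrenomedullin needs, had 16.1 to 29.8 normalized counts over the 8 libraries and was not called. MME, a peptidase, was called at 6 h (0.12). This call was lost with DESeq2 (0.0549), quantile normalization (0.115), only the groups compared (0.143) and the authors' deposited comparison (0.0598). It was also lost without either 6 h replicate (0.12 each), among other alternatives.

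Of 6 thrombospondin relatives, 2, 3 and 3 rose and 1, 1 and 0 fell, with medians of 0.15, 0.07 and 0.13. THBS2, which like THBS1 restrains angiogenesis, rose by 0.22 ± 0.05, 0.38 ± 0.05 and 0.30 ± 0.05 (adjusted p = 0.00230, 5.33e-06 and 9.32e-05), with the highest value at 9 h. THBS3 rose at 9 and 12 h (0.31 and 0.33), and lost these calls without 9 h replicate 2 (0.25, 0.0950) and 12 h replicate 1 (0.29, 0.0525). COMP rose by 0.48, 0.63 and 0.59. Its 6 h call was lost with DESeq2 (adjusted p = 0.140) and with group weights (0.0583). In the authors' deposited comparisons COMP was not called at 6 h (0.150) or at 12 h (0.0519). At 6 h COMP was not called without DMSO replicate 1 (0.43, 0.0762) or either 6 h replicate (0.44 and 0.52, 0.103 and 0.0543), and its 9 h call without 9 h replicate 1 (0.48, 0.0788). CD47, a receptor of THBS1, fell at 6 and 9 h (−0.14 and −0.17). The 6 h call was lost with TMM scaling (0.0537), edgeR (0.0561) and DESeq2 (0.0656), and the 9 h call without 9 h replicate 1 (−0.14, 0.135).

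Among 11 tested class 3 semaphorins and plexins, 3, 6 and 5 rose and 3, 2 and 1 fell, with medians of −0.01, 0.13 and 0.31. SEMA3A, a ligand of NRP1, had 5935 and 6224 normalized counts in DMSO, 4076 and 4119 at 6 h, 4730 and 4770 at 9 h, and 5794 and 5894 at 12 h. It fell by 0.57 ± 0.05 at 6 h (adjusted p = 4.46e-09) and 0.36 ± 0.05 at 9 h, and at 12 h stood at −0.06 ± 0.05 (0.347). SEMA3C fell by 0.35 ± 0.05 at 6 h and rose by 0.41 ± 0.05 at 12 h, so it too was lowest at 6 h. SEMA3B rose by 0.55 ± 0.09 at 9 h and 0.88 ± 0.09 at 12 h. PLXNA2, a plexin receptor, rose by 1.13 ± 0.07, 0.85 ± 0.07 and 0.50 ± 0.07.

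**Figure D4:**
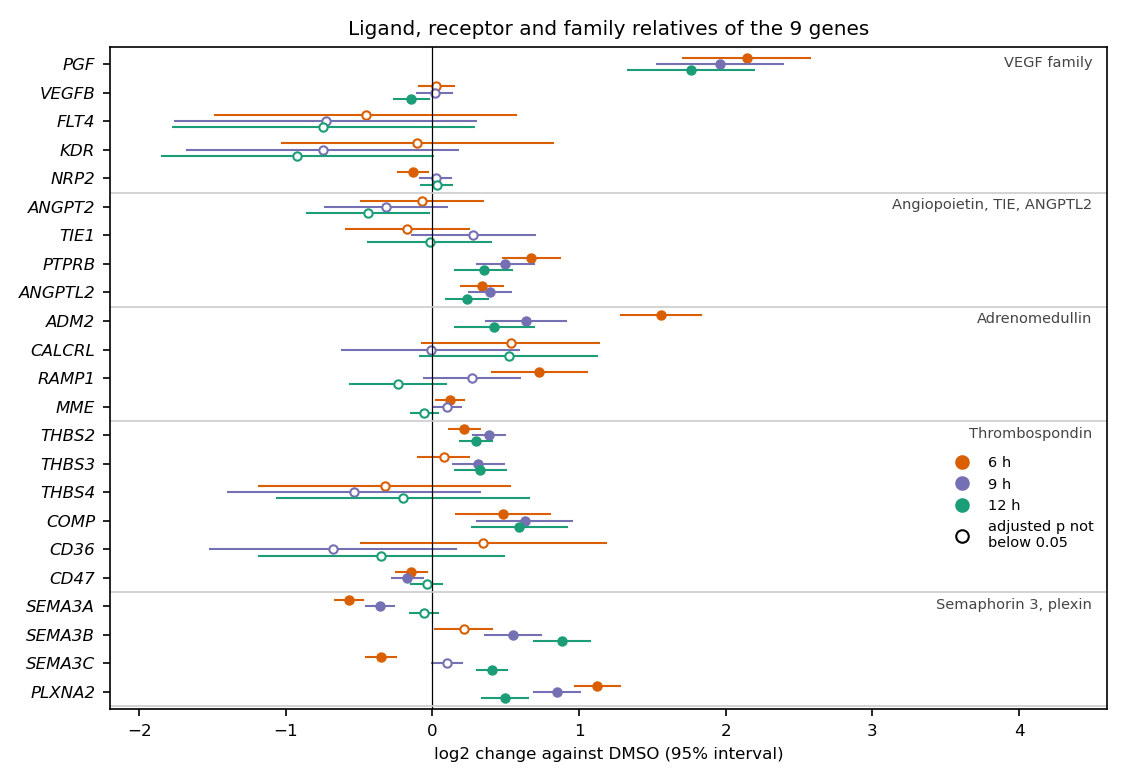
Log2 change against DMSO at 6, 9 and 12 h with 95% intervals for 23 relatives of the 9 genes, grouped by family; open points did not pass the adjusted p of 0.05. PGF, ADM2 and PLXNA2 have the largest increases at 6 h (2.14, 1.56 and 1.13), and SEMA3A and SEMA3C are lower at 6 h than at 12 h.

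Of 20 other secreted angiogenic factors, 10, 8 and 9 rose and 4, 4 and 2 fell, with medians of 0.32, 0.14 and 0.13. The shares of all tested genes at 6, 9 and 12 h were 16.1%, 16.2% and 18.5% higher and 20.6%, 19.1% and 21.4% lower. For abundant genes the shares called in either direction were 45.9%, 45% and 50.3%. PDGFA, a platelet-derived growth factor, rose by 1.83 ± 0.09, 1.53 ± 0.09 and 1.35 ± 0.09, and FGF2, a fibroblast growth factor, by 1.07 ± 0.05, 0.69 ± 0.05 and 0.72 ± 0.05. TIMP3, a metalloprotease inhibitor, rose by 0.68 ± 0.04, 0.58 ± 0.04 and 0.50 ± 0.04. Each of these 3 had its largest change at 6 h, as VEGFA and ANGPTL4 did.

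A list of 35 further HIF-linked genes was read, without VEGFA, ADM and ANGPTL4. Of these, 20, 18 and 15 rose and 2, 2 and 5 fell at 6, 9 and 12 h, with medians of 0.18, 0.17 and 0.10. Over all tested genes 16.1%, 16.2% and 18.5% rose and 20.6%, 19.1% and 21.4% fell. Of the abundant ones, 45.9%, 45% and 50.3% were called in either direction. All groups shared the same low oxygen, so changes in this list are not a measured response to hypoxia. Whether they came through HIFs or p53 was not tested. NDRG1, a stress-response gene, rose by 0.97 ± 0.04, 0.77 ± 0.04 and 0.59 ± 0.04, and BHLHE40, a transcriptional repressor, by 1.04 ± 0.06, 0.85 ± 0.06 and 0.73 ± 0.06. KDM4B, a histone demethylase (0.76, 0.91 and 0.83), and P4HA2, a collagen hydroxylase (0.29, 0.39 and 0.43), had their highest values after 6 h. ADM thus differed in direction from most of the list that passed, as did HILPDA (−0.33, −0.50 and −0.42) and ZNF395 (−0.24, −0.27 and −0.49), which fell at each time and were named after their values were seen. From 6 to 12 h 4 of the 35 rose and 13 fell, beside 14.4% and 17.1% of all genes. Of 8 tested HIF regulators, 2, 2 and 0 rose and 1, 2 and 2 fell. EPAS1, which encodes HIF-2α, rose by 0.34 ± 0.05 and 0.26 ± 0.05 at 6 and 9 h. At 12 h it stood at 0.04 (called without DMSO replicate 1, 0.12, 0.0213). HIF1A stood at 0.08, −0.13 and −0.16, the last 2 called. Its 9 h call was lost with TMM scaling (0.0683), with edgeR (0.0708), and without DMSO replicate 1 (−0.08, 0.164), either 9 h library (−0.16 and −0.10, 0.0723 and 0.266) or either 12 h library (0.0600 and 0.0601). The 12 h call was lost without 12 h replicate 1 (−0.16, 0.0573) or 2 (−0.15, 0.0742), and at 6 h HIF1A was called higher without DMSO replicate 1 (0.13, 0.0123). ARNT2, a HIF partner, fell by 0.62 ± 0.07 and 0.73 ± 0.07 at 9 and 12 h. Its fall at 6 h (−0.20) was not called with quantile normalization (0.166) or DESeq2 (0.106), or without either 6 h library.

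Of 8 tested PPAR targets, 5, 4 and 4 rose and 0 fell, with medians of 0.22, 0.12 and 0.13. Beside them, 16.1%, 16.2% and 18.5% of all tested genes rose and 20.6%, 19.1% and 21.4% fell at 6, 9 and 12 h. Of the abundant genes, 45.9%, 45% and 50.3% were called in either direction. PLIN2, a lipid droplet protein, rose by 0.37 ± 0.05 at 6 h and stood at 0.04 and −0.13 at 9 and 12 h, neither called. The change of PLIN2 at 6 h was small beside the 2.51 of ANGPTL4.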

How the data were processed

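PolyA RNA was sequenced from 8 libraries in 4 groups of 2, made with a kit that marks strand, per the labels' protocols. The authors deposited a table of normalized counts (a signal, gene counts divided by a size factor per library), and reads were aligned with STAR to hg19 and analysed with DESeq2, per the submitters' processing notes. How reads were counted, with or without strand and on which gene models, is not given in the sources used here. Deposited comparisons by the authors hold log2 fold changes, p-values and a score (the Wald statistic), per the file headers, and served as 1 alternative. Dividing by the value of 1 read returned whole reads for 100% of gene values in each library (within 1e-06), also in 9 h replicate 1, where 1 read is worth close to 1 (0.996). The 3 rows of unassigned reads (28.2 to 29.1% of totals) were left out. The floor of 3 reads covers counting error only, and the 95% intervals, from limma, cover the spread between libraries.

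Values were tested as log2(normalized count + 1), which understates changes of low genes, with limma 3.58.1 (trend on, R 4.3.3) in 1 fit over all 8 libraries. Genes needed a value of at least 10 in 2 or more libraries (14074 of 18216). P-values were adjusted by Benjamini-Hochberg over all tested genes, for each of 6 comparisons separately, at a threshold of 0.05. Residual degrees of freedom were 4 and prior ones 15.5, and an exact permutation test of 2 against 2 libraries cannot go below p = 0.333. Alternatives (21) covered scaling, pseudocount, filters, weights, edgeR 4.0.16 and DESeq2 1.42.0 on the recovered reads, the replicate block and each library left out. The members and gene lists were chosen with earlier results of these data known. Named were the members, their ligands and receptors, up to 4 genes per further list with the smallest F-test p, the 2 genes with the highest counts in each marker list and the 3 genes most like each member (Pearson r, mean of at least 50, called by the F test, and an absolute log2 change of at least 0.5 at some time). Lengths came from GENCODE v29 (GRCh38) and upstream sequence from RefSeq.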

Additional observations from a re-analysis of the deposited data

Results flagged for a closer look

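The change against DMSO differed between 6 and 12 h of Nutlin-3a for 8 of the 9 genes, by limma's test of the 12 h against the 6 h libraries (adjusted p below 0.05). ANGPTL4 had the largest difference, −1.63 on the log2 scale, and FLT1 fell by 0.95. VEGFA differed by −0.53, TEK by −0.38, ADM by −0.22 and THBS1 by −0.20. ANGPT1 and NRP1 differed the other way, by 0.55 and 0.46. Over all tested genes, 31.5% were called in the same test. The time in culture of the groups is not given, and its part in these differences was not tested.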

How the results depend on the processing

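No result for the 9 genes changed direction past the threshold under the 21 alternatives, and of their alternative values 1052 kept their side of the threshold, 41 lost it and 14 gained it. Without an intensity trend, 4 members were called from 6 to 9 h and 0 from 9 to 12 h by limma (4 at an unadjusted p below 0.05, 4 by edgeR and 4 by DESeq2), with 1337 and 174 of all genes in place of 2592 and 563. From 9 to 12 h, group weights gave 1240 genes and fitting only the groups compared gave 1387. Leaving out 1 library gave 7 to 8 members at 6 h, 6 to 8 at 9 h, 6 to 7 at 12 h, 4 to 8 from 6 to 9 h, 2 to 5 from 9 to 12 h, 7 to 8 from 6 to 12 h, and 9 by the F test. Over all genes it gave 3637 to 5869 at 6 h (5160 with all libraries), 3430 to 5507 at 9 h (4964), 4036 to 6168 at 12 h (5610), 1350 (without 9 h replicate 2) to 3926 (without DMSO replicate 2) from 6 to 9 h, 266 (without 12 h replicate 2) to 1258 (without DMSO replicate 1) from 9 to 12 h, and 2930 to 5668 from 6 to 12 h (4431). The cause was not tested. Quantile normalization moved the share of higher calls at 12 h from 46.4% to 57.6%. With the replicate block, 8, 7 and 7 members were called at 6, 9 and 12 h, 7, 4 and 8 between times and 9 by the F test, and no member's call changed. The numbers did not pair the samples (r of replicate deviations −0.152 to 0.0914 over 11461 genes).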
